A study of Mus musculus with 9 samples.

Results

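The 4 probes mmu-miR-10a, mmu-miR-10b, mmu-miR-196a and mmu-miR-196b of a mouse miRNA panel read 2 miRNA families that lie inside the Hox gene clusters. They were taken by name, 4 of 566 mouse miRNA probes, and were chosen by their counts in these same 9 libraries, set against lane background and against miR-208a, so their levels are given as a description. Lungs of mouse embryos at E18.5, shortly before birth, were measured on the NanoString nCounter, which counts single reporter-labelled molecules without amplification, from 100 ng of total RNA each. The 4 mutant lungs were Bim3'UTRmut/mut, homozygous for an altered 3′ untranslated region of Bim, a gene for a pro-apoptotic BH3-only protein. The 5 control lungs were wild type, and both genotypes had a C57BL/6 background. Whole lung was ground, so each library mixes all cell types of the organ.

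Hox genes are transcription factors that give cells their position along the head-to-tail axis. Within a cluster their order follows the order of their expression domains, and the miRNA genes between them tend to share the domain of their neighbours. The miR-10 genes lie among more anterior Hox genes than the miR-196 genes, and miR-196 is known in the mouse to target Hoxb8. The lung buds from the foregut, and its mesenchyme expresses Hox genes of the middle groups, such as Hoxa5 and Hoxb5.

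The mature sequences, from RefSeq on GRCm38.p6, are shown because the seed, bases 2 to 8 in capitals, defines each family and because each pair of probes must tell apart a single base. The panel names carry no arm, and the 5p mature form was taken for each.
miR-10a: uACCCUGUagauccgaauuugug
miR-10b: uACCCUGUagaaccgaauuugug
miR-196a: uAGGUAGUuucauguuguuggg
miR-196b: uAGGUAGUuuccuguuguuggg

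miR-10a and miR-10b share the seed ACCCUGU and differ over 23 bases by 1 substitution, U12A, counted from the 5′ end with the base of miR-10a first. miR-196a and miR-196b share the seed AGGUAGU and differ over 22 bases by A12C, with the base of miR-196a first. Neither substitution touches the seed.

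The gene of miR-10a lies on chromosome 11, with the mature form at chr11:96317186-96317208 on the plus strand. It falls within the RefSeq span of Hoxb3, between Hoxb5 and Hoxb4. The miR-10b gene has its mature form at chr2:74726074-74726096, plus strand, within the spans of Hoxd3 and Hoxd4. miR-196a comes from 2 genes, at chr11:96265187-96265208 between Hoxb13 and Hoxb9 and at chr15:102973365-102973386 between Hoxc10 and Hoxc9, both on the plus strand. The probe reads the product of both and cannot tell them apart. miR-196b lies at chr6:52230129-52230150 on the minus strand, between Hoxa9 and Hoxa10.

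Total counts over the mouse probes ran from 206964 to 289227, and the mean of the 8 negative controls ran from 28.1 to 79.1. A count was called above background if it exceeded a threshold set in its own lane, the negative controls' mean plus 2 SD, of 56.3 to 198 counts. Mutant 6, wild type 2 and wild type 5 had the 3 highest thresholds, at 152, 147 and 198. Of all mouse probes 19.8% exceeded it in all 9 samples and 52.7% in none. The lane table names sample 5 mutant, whereas the sample labels, followed here, name it wild type.

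Tissue markers set 2 libraries apart before any result. Mutant 8 and wild type 3 held 1271 and 1202 counts of miR-208a, a miRNA of cardiac myosin genes, against 15 to 54 in the other 7 libraries. The heart list held miR-208a, miR-208b, miR-499, miR-1 and miR-133a. miR-208a, taken above 500 counts, set the 2 libraries apart, so its place was fixed in advance. The others were also higher in both, as were 5.48% of all mouse probes. All 5 summed to 29750 counts in mutant 8 and 22723 in wild type 3, against 262 to 433. The summed lung epithelial markers were 2292 and 685, against 7431 to 9589, with 6 of 7 below every other library. miR-205 of basal epithelium was the exception, at 1196 counts in mutant 8 and 111 in wild type 3, against 649 to 915. Of all mouse probes 11.5% lay below every other library in both. Of the 189 above background in at least 4 samples, 28.6% did. The skeletal muscle markers miR-206 and miR-133b summed to 297 and 146, against 108 to 203. Liver-linked miR-122 was higher in both, at 812 counts each, against 43 to 232. The neural markers miR-124, miR-9 and miR-218 summed to 773 in mutant 8 and 484 in wild type 3, against 426 to 717. Of these only miR-9 was higher in both, at 66 and 33 counts against 11 to 25, and only mutant 8 passed its lane threshold. Both libraries are labelled lung, 1 in each genotype. They are called the cardiac-marker libraries below, and because a measured value set them apart, no test between them and the rest is given in these results.

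miR-10a was the only clearly expressed member of the 4. It had 552, 646, 80 and 635 counts in mutants 6, 7, 8 and 9. In wild types 1 to 5 it had 617, 626, 58, 619 and 668 counts. The genotypes overlapped fully, and in each the lowest library was the one with cardiac markers. It exceeded its lane threshold in 8 of 9 samples and was the only member kept for the test over detected probes, which needed 4 samples above background.

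In the other 7 libraries miR-10a stood at 3.38 to 10.97 times the lane threshold and ranked between 46 and 54 among the 566 mouse probes. Its counts averaged 623 ± 36.1 (SD, n = 7), a coefficient of variation of 5.78%. Counting error alone gives 4.01% at this mean. This spread, on counts not scaled between lanes, was the 3rd lowest of the 189 kept probes, whose median was 18.1%. After scaling, in log2 CPM, the SD of miR-10a over the same 7 libraries was 0.163, and its place among the kept probes was not taken on that scale. Second lanes of the same RNA gave 572 in mutant 6, 646 in wild type 1 and 779 in wild type 5, against 552, 617 and 668 in the first lanes. The largest difference between lanes was 16.6%, in wild type 5.

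The cardiac-marker libraries lay far below. Mutant 8 had 80 counts, with an exact 95% Poisson interval of 63.4 to 99.6, which was 1.23 times its lane threshold. Wild type 3 had 58 counts (44.0 to 75.0), which did not pass its threshold of 68.6. The lowest of the other 7 libraries was 6.90-fold higher than mutant 8 and at least 8.04-fold higher than wild type 3, taken there against the threshold. Such intervals cover counting error only. That of wild type 3 reaches past its threshold, so the bound of 8.04-fold leaves counting error out.

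**Figure D1:**
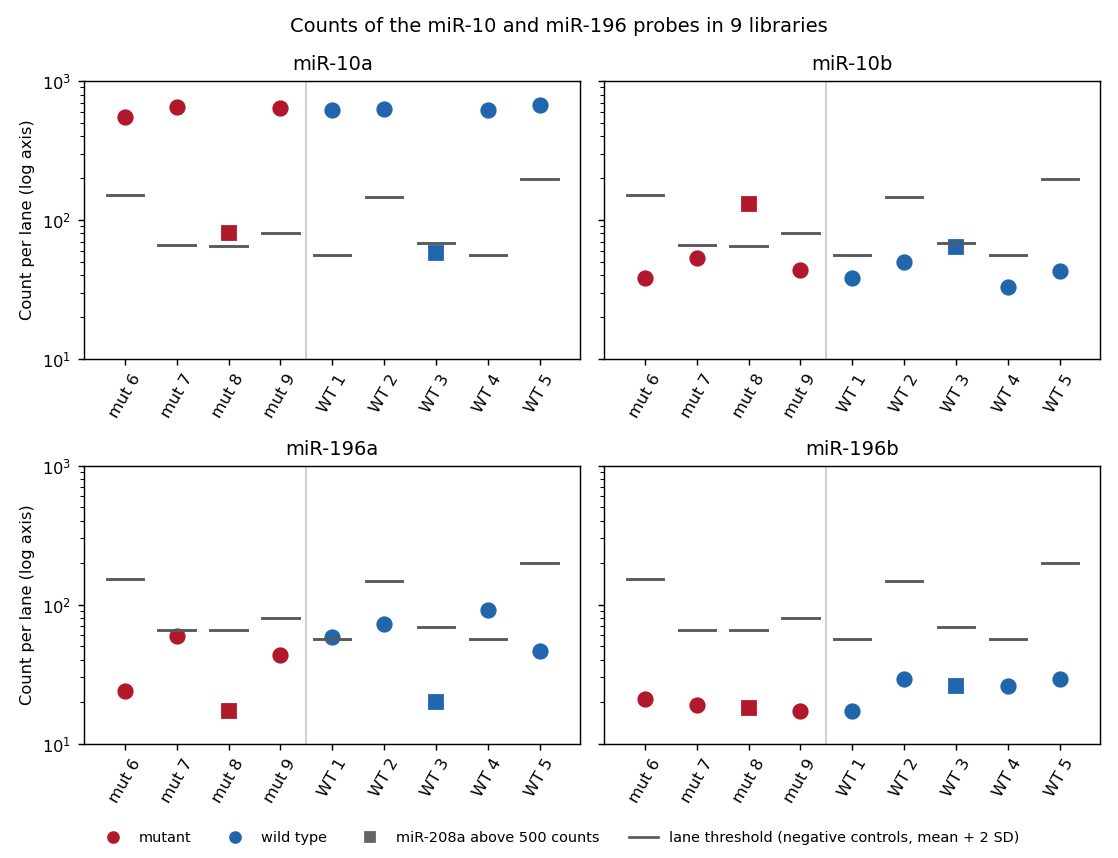
Counts of the 4 probes (log axis) in each library, mutants in red on the left and wild types in blue on the right, with squares for the libraries with miR-208a above 500 counts and bars for the lane threshold. miR-10a stands at 552 to 668 counts in the 7 round points and at 80 and 58 in the squares, whereas most points of the other probes lie below their bars.

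Lower counts in both cardiac-marker libraries were common. Over all mouse probes 11.5% lay below the other 7 libraries in both, and over the 189 kept probes 28.6% did. On the log2 CPM scale 38 kept probes did. Among them miR-449a, a miRNA of multiciliated cells, had 70 counts in mutant 8 and 58 in wild type 3, against 788 to 1307 in the other 7. Epithelial miR-429 had 196 and 62 counts, against 1614 to 2320.

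After the mean negative control count of each lane was subtracted, miR-10a kept 7.71% of the median of the other 7 libraries in mutant 8. In wild type 3, where it was not above background, it kept at most 5.29%, a bound taken at the lane threshold that leaves counting error out. miR-449a kept 4.22% in mutant 8 and, by the same kind of bound, at most 3.72% in wild type 3. miR-200c kept 11.3% and 4.43%. Endothelial miR-126-3p stood at 55.9% in mutant 8 and 61.7% in wild type 3, and miR-126-5p at 88.3% and 63.4%. Of these only the 88.3% lay inside the range of the other 7 libraries, 78.8% to 140%. The blood markers went both ways, partly within that range. Erythroid miR-451 stood at 81.7% and 64.1%, inside the 56.6% to 141% of the other libraries. Erythroid miR-144 stood at 321% and 138%, inside their 24.4% to 334%. Their miR-144 median was only 33.75 counts above background. miR-142-3p of white blood cells stood at 788% and 58.3%, outside their range only in mutant 8. Myeloid miR-223 stood at 40.0% and 39.5%, below all of them. miR-205 stood at 168% and 10.7%, so the epithelial list did not move as one in mutant 8. Fewer cells of a type and less miRNA per cell cannot be told apart in ground tissue, and the part of tissue content in the miR-10a difference was not tested.

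**Figure D2:**
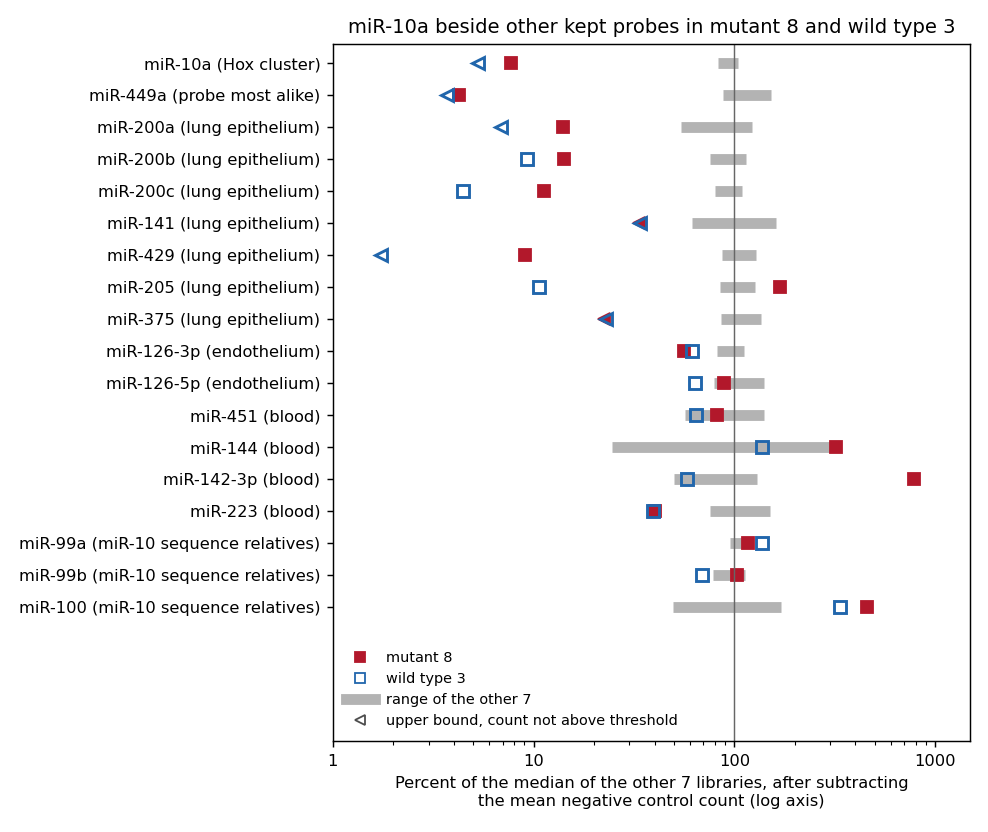
Background-subtracted counts in mutant 8 (filled) and wild type 3 (open) as a percent of the median of the other 7 libraries, whose range is the grey bar, on a log axis. Triangles are upper bounds where the count was not above the lane threshold, taken at that threshold and without counting error. miR-10a, at 7.71% and at most 5.29%, lies with miR-449a and the miR-200 probes, left of the endothelial and blood probes and of miR-99a, miR-99b and miR-100.

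The probes most like miR-10a, by Pearson correlation of log2 CPM over the 9 samples among 188 other kept probes, were miR-449a, miR-200c and miR-200b, each at r = 0.98 or above. Those most opposite were miR-378 and the muscle miRNAs miR-133a and miR-1, at r from -0.99 to -0.98. These values rest on the cardiac-marker libraries. Over the other 7 samples r was 0.35 for miR-449a, 0.34 for miR-200c, -0.64 for miR-200b, 0.16 for miR-378, -0.03 for miR-133a and 0.56 for miR-1. The points share 1 cartridge and 1 scaling.

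miR-10b had the opposite order to miR-10a, though mostly among counts below the lane threshold. It had 38, 53, 131 and 44 counts in mutants 6, 7, 8 and 9. In wild types 1 to 5 it had 38, 50, 64, 33 and 43 counts. In both genotypes the cardiac-marker library was the highest. Only mutant 8 exceeded its lane threshold, by 2.01 times, with a Poisson interval of 109.5 to 155 and a count above all 8 negative controls. Wild type 3 reached 0.93 times its threshold and lay above 7 of the 8 controls. The remaining 7 libraries stood at 0.22 to 0.81 times the threshold, so miR-10b was not detectable in them at this depth. Both cardiac-marker libraries were above the other 7 in 5.48% of all mouse probes and 8.99% of the kept ones. For miR-10b the margin was 11 counts for wild type 3 and it vanished when counts were scaled by the positive controls.

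Probe efficiencies are not known, so the 2 miR-10 probes are set side by side only to show how far one can read the other. In the 7 libraries where miR-10a was high, miR-10b counts were 5.33% to 8.20% of the miR-10a counts, which bounds the reading of miR-10a by the miR-10b probe. In mutant 8 both probes exceeded the lane threshold, miR-10b at 131 and miR-10a at 80 counts. In wild type 3 neither did, at 64 and 58 counts, and their Poisson intervals overlapped.

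**Figure D3:**
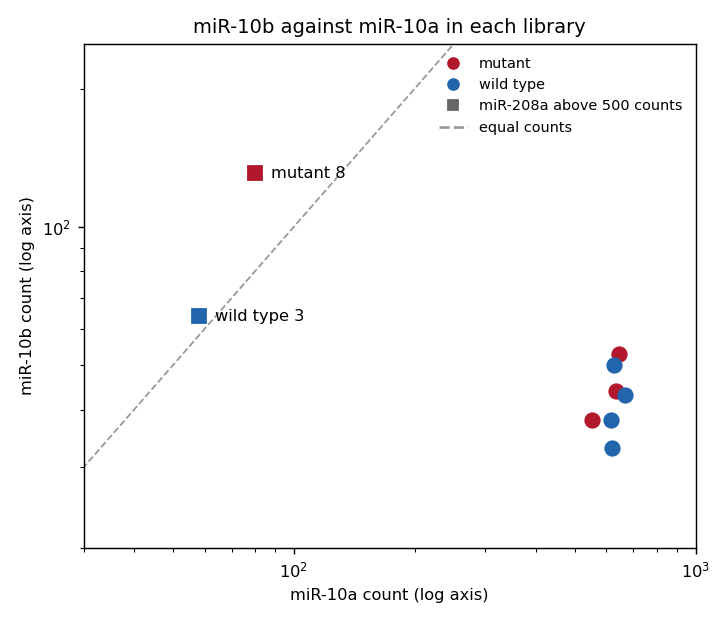
miR-10b counts against miR-10a counts in each library, both on log axes, with mutants in red, wild types in blue and squares for the cardiac-marker libraries. The 7 round points cluster at 552 to 668 miR-10a counts and 33 to 53 miR-10b counts, and both squares lie at 80 or fewer miR-10a counts, with both counts of wild type 3 below its lane threshold.

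miR-196a was at the edge of detection. It had 24, 59, 17 and 43 counts in mutants 6, 7, 8 and 9. In wild types 1 to 5 it had 58, 73, 20, 91 and 46 counts. Wild types 1 and 4 exceeded their lane thresholds, by 1.03 and 1.61 times, and no mutant did. Mutant 7, at 0.90 times its threshold, nevertheless lay above all 8 negative controls of its lane. The cardiac-marker libraries had the lowest counts, but mutant 6 was only 4 counts above wild type 3. In mutant 6, as in the cardiac-marker libraries, the count exceeded none of the 8 controls. On log2 CPM and after background subtraction mutant 6 was no longer above both, so the order does not hold beyond raw and positive-control-scaled counts. Second lanes gave 19 counts in mutant 6, 80 in wild type 1 and 28 in wild type 5, and none of these passed its threshold.

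miR-196b was at background everywhere. Counts were 21, 19, 18 and 17 in mutants 6, 7, 8 and 9. In wild types 1 to 5 they were 17, 29, 26, 26 and 29. The highest library stood at 0.46 times its lane threshold, and the count exceeded at most 4 of the 8 negative controls. The cardiac-marker libraries, at 18 and 26, lay inside the range of the others.

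Of 6 other Hox-embedded arms listed, the panel held miR-615-3p and miR-615-5p, which come from a hairpin within the span of Hoxc5 on chromosome 15. They had 8 to 24 and 11 to 24 counts in the mutants, and 18 to 35 and 9 to 19 counts in the wild types. Neither exceeded its lane threshold in any of the 9 samples. Over the Hox-embedded probes on the panel, miR-10a was thus the only one above background in more than 2 samples.

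Sequence relatives of miR-10 outside the Hox clusters are shown for their seed, which differs from that of miR-10.
miR-99a: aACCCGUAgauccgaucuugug
miR-99b: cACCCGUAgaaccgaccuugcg
miR-100: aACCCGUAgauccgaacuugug

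All 3 relatives were kept. In the cardiac-marker libraries none was as low as miR-10a: miR-99a stood at 117% of the other libraries' median in mutant 8 and 137% in wild type 3, and miR-99b at 102% and 69.3%. miR-100 was higher in both, with 412 and 315 counts against 101 to 174.

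The study's own comparison was mutant against wild type lung. No member passed for genotype in edgeR's quasi-likelihood test, and no other mouse probe did, with 0.0% of the 189 kept probes called at an adjusted p under 0.05 and 0.0% of all 566 mouse probes. At an unadjusted p under 0.05 edgeR had 5 of 189 and DESeq2 9, with 0 adjusted in both. No mouse probe had all mutants above or all below all wild types (0.0% each way).

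miR-10a averaged 478 ± 269 counts in the mutants (SD, n = 4) and 518 ± 258 in the wild types (SD, n = 5). Its log2 fold change, mutant over wild type, was -0.10 ± 0.65 (SE), with a 95% interval of -1.56 to 1.36 and an edgeR adjusted p of 0.997. Without mutant 8 and wild type 3 it averaged 611 ± 51.4 counts in 3 mutants and 633 ± 24.0 in 4 wild types. The log2 fold change was then -0.02 ± 0.15 (edgeR adjusted p = 0.980), with an interval from 0.782-fold to 1.25-fold. That interval holds the differences compatible with these counts and is not a limit of detection. Its smaller width followed from the choice of libraries left out. Mutant 8 and wild type 3 were set apart by miR-208a in these same data and had the lowest miR-10a count of each genotype. Without them, mean counts in the lower-background lanes were 641 in 2 mutants and 618 in 2 wild types, and in the higher-background lanes 552 in 1 mutant and 647 in 2 wild types.

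The other members were not kept and were fitted with all 566 mouse probes. miR-10b had a log2 fold change of 0.57 ± 0.42 (SE; edgeR adjusted p = 0.999), and 0.24 ± 0.29 without the cardiac-marker libraries (edgeR adjusted p = 0.999). It was -0.035 without mutant 8 alone, and 1.64 ± 1.58 (SE) after background subtraction, with a 95% interval of -1.88 to 5.17. miR-196a had -0.67 ± 0.49 (edgeR adjusted p = 0.999), and -0.63 ± 0.45 without them (edgeR adjusted p = 0.999). Its mean count was 35.8 ± 19.0 in the mutants (SD, n = 4) and 57.6 ± 26.9 in the wild types (SD, n = 5), with mutant 7 above wild types 1, 3 and 5. Within the lower-background lanes, without the cardiac-marker libraries, it averaged 51 in 2 mutants and 74.5 in 2 wild types, and in the higher-background lanes 24 in 1 mutant and 59.5 in 2 wild types. miR-196b had -0.42 ± 0.22 (edgeR adjusted p = 0.999), a difference between counts that all lay below background.

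**Figure D4:**
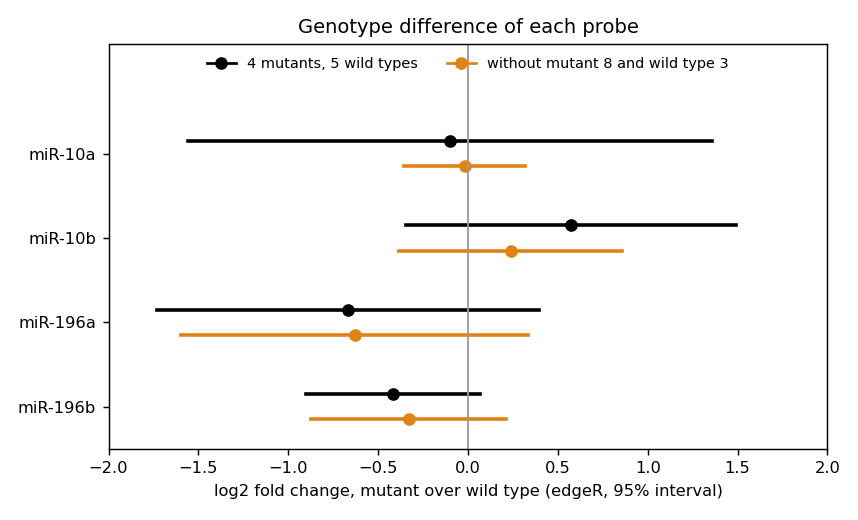
Log2 fold change of each probe, mutant over wild type, from edgeR with its 95% interval, for all 9 samples (black) and without mutant 8 and wild type 3 (orange). All 8 intervals include 0, and that of miR-10a narrows from -1.56 to 1.36 with all samples to -0.35 to 0.32 without those libraries. They held the lowest miR-10a count of each genotype, so the narrowing followed from leaving them out.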

How the data were processed

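The authors deposited raw counts per probe, per the file headers from the nCounter panel NS_M_MIR_V1.5, and any background step or normalization before deposit is not given in the sources used here. A second deposited table, whose columns also hold other lane attributes, gave the counts of 12 lanes, 3 of them repeats. All 5634 values of the count table equalled the first lanes, which were used, and repeats count as 1 replicate. The members and lists were chosen with earlier results of these data known. Probes were kept if above the lane threshold in at least 4 samples (189 of 566). edgeR 4.0.16 in R 4.3.3 (TMM, quasi-likelihood, mouse probes only) tested genotype with Benjamini-Hochberg adjustment at 0.05. Members not kept were fitted over all 566 probes. DESeq2 1.42.0, limma 3.58.1, other scalings, filters, thresholds and sample sets were alternatives. Named probes are the members, the fixed lists and, for a kept member, the 3 probes most alike, with 3 opposite ones and miR-429 named after their values were seen. The edgeR fit was tested on simulated counts whose spread between samples was taken without the cardiac-marker libraries. That test does not show how the fit behaves with the spread those libraries add. The labels do not say from which litters the samples came, so p-values cover only the spread among the samples. Sequences and neighbouring genes come from RefSeq tables on GRCm38.p6, in which all 9 names looked up matched. Figures were drawn with matplotlib 3.10.9 in Python 3.11.15, from tables made with pandas 2.3.3.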

Additional observations from a re-analysis of the deposited data

Results flagged for a closer look

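Within a genotype, a gap test for single outliers marked 4 values in 8 tested groups. Chance marks about 1 in 20 groups, but these probes were chosen with their counts known, so the marks are a description and no comparison with chance holds. They were the miR-10a count of 80 in mutant 8 and of 58 in wild type 3, the miR-10b count of 131 in mutant 8, and the miR-196b count of 17 in wild type 1, which lay below its lane threshold. The first 3 fall in the libraries with high cardiac markers. miR-10b did not pass the filter for the test of detected probes, and its 131 counts in mutant 8 were above the lane threshold and above every wild type, the highest of which had 64.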

How the results depend on the processing

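No paired analysis was possible because the replicate numbers differ between genotypes. No kept probe was called in any of the 27 alternatives that gave a count, and no member passed in any of its own, with adjusted p from 0.620 to 1.00. The direction for miR-196a (-1.62 to -0.29) and miR-196b (-0.53 to -0.18) was kept throughout. Over all 566 probes 1 was called, in 2 lower-background mutants against 2 wild types: miR-208a, at 47 and 47 against 15 and 17 counts, all below background (edgeR adjusted p = 0.0372, an alternative chosen after seeing the data). That of miR-10a turned to 0.052 with housekeeping scaling, which moved the median of all kept probes from -0.03 to 0.11, and to 0.0027 with sample 5 counted as mutant. Leaving out 1 sample gave -0.37 (without wild type 3) to 0.25 (without mutant 8) for miR-10a, and 0.066 without wild type 4. For miR-10b this range was -0.035 (without mutant 8) to 0.84, and the value was -0.20 in the higher-background lanes alone and -0.0059 without wild type 3 and mutant 8 with sample 5 as mutant, an alternative chosen after seeing the data. For miR-196a it ran from -1.05 to -0.29 and for miR-196b from -0.50 to -0.31. Background subtraction gave 1.64 ± 1.58 (SE) for miR-10b. The causes were not tested. At a threshold of the mean plus 1 SD miR-10b passed in 3 samples rather than 1. miR-196a passed in 2, in 1 at the mean plus 3 SD or with second lanes, and in 3 at the mean plus 1 SD or above the highest negative control. The margin of the cardiac-marker libraries to the nearest other turned to -2.75 counts for miR-10b with positive-control scaling, and for miR-196a to -25.3 counts after background subtraction and -0.35 in log2 CPM. A filter in all 9 samples dropped every member, the no-filter fit is already that of the 3 members not kept, and miR-196b was at 0 after background subtraction.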
